A study of Mus musculus with 6 samples.

Results

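Twist1, Twist2, Prrx1 and Prrx2 encode transcription factors of the embryonic mesenchyme, and the open chromatin around these 4 genes was followed in ATDC5 cells, a mouse line of cartilage precursors, over 3 days of sampling. The members were all listed ATAC-seq peaks whose summit fell in 1 of 4 fixed windows. In GRCm39 positions these were chr12:33850000-34160000 for Twist1, chr1:91600000-91900000 for Twist2, chr1:162950000-163300000 for Prrx1 and chr2:30650000-30850000 for Prrx2. They held 1498 of the 1455940 peaks listed in the 6 libraries, with 94 peaks in the Twist1 window, 339 in the Twist2 window, 446 in the Prrx1 window and 619 in the Prrx2 window. ATAC-seq uses the Tn5 transposase to cut and tag accessible DNA. All libraries came from this 1 cell line. Per the labels' protocol, dense droplets of cells were left to attach in dishes for all 3 days and were differentiated in medium with beta-glycerophosphate and an ascorbate phosphate. The groups are Day0 (labelled control), Day3 and Day10 (both labelled differentiation), with 2 libraries each, which the labels call biological replicates without naming the cultures. No transgene or mutation is named. The line is labelled as pre-chondrocyte, and marker genes of that cell type were not checked here for want of an annotation of the lists' build.

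Twist1 and Twist2 are basic helix-loop-helix proteins that bind E-box DNA as dimers and hold mesenchymal and skeletal precursors in an immature state. Twist2 is also known as Dermo1. Prrx1 and Prrx2 are paired-type homeodomain proteins of limb and craniofacial mesenchyme, and mice that lack both have more severe skeletal defects than mice that lack either. Prrx1 marks early limb-bud mesenchyme, from which cartilage condensations form. In the RefSeq table of GRCm38.p6, both Twist genes lie beside a class IIa histone deacetylase gene, Hdac9 next to Twist1 and Hdac4 next to Twist2. Distant enhancers of Twist1 have been described within Hdac9. Prrx1 lies between Mroh9 and Gorab in that table, and Prrx2 between Asb6 and Ptges, the inducible prostaglandin E synthase gene. No annotation of GRCm39 was used here, so a listed peak could not be placed in an exon, an intron or a promoter, and a peak in a window may belong to a neighbouring gene.

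The promoters of the 4 genes are shown because they are the members' own regulatory sequence. They are RefSeq sequences of GRCm38.p6, a different build from that of the peak lists, and they were not placed on the peaks. Each run gives the 250 bases before the gene start, 5′ to 3′ on the gene's strand. Positions in GRCm38.p6 are chr12:33957421-33957670 on the plus strand for Twist1, chr1:91801211-91801460 on the plus strand for Twist2, chr1:163313651-163313900 on the minus strand for Prrx1 and chr2:30845117-30845366 on the plus strand for Prrx2. Capitals mark matches on either strand to the motifs searched.
Twist1: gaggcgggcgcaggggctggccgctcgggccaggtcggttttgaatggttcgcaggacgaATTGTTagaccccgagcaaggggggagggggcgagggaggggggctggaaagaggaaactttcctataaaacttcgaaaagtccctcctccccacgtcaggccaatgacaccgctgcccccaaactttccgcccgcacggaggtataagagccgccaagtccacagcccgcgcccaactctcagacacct
Twist2: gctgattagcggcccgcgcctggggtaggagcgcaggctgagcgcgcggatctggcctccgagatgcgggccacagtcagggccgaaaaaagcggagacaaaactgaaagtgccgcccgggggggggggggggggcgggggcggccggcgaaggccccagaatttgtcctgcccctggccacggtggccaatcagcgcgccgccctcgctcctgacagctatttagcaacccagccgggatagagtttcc
Prrx1: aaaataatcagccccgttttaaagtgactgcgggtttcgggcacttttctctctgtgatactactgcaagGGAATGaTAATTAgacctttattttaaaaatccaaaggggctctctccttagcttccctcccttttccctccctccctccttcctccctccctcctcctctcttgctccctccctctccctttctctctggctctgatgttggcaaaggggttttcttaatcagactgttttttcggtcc
Prrx2: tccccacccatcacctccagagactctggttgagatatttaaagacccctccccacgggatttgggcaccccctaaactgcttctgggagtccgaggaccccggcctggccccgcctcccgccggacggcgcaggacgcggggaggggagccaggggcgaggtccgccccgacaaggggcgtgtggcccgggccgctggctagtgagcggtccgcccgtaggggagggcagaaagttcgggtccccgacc

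The E-box CANNTG was absent from all 4 promoters, while 66.2% of the 32851 RefSeq promoters of the same length held at least 1. Prrx1 held 1 homeodomain core TAATTA, which 4.84% of all promoters hold, at 173 bases before the start, and 1 TEAD-type GGAATG, which 12.6% hold, at 180 bases before it. Twist1 held 1 Sox-type AACAAT, read on the other strand as ATTGTT, which 9.42% of promoters hold, at 190 bases before the start. Neither the AP-1 letters TGANTCA, found in 6.75% of promoters, nor the Runx letters ACCACA, found in 14.0%, occurred in any of the 4. Prrx1 also differed in base composition, with 47.6% G and C and 4 CpG pairs, against 62.4% and 18 for Twist1, 68.8% and 23 for Twist2, and 70.0% and 21 for Prrx2. The median promoter had 52.4% and 6. These matches describe letters in a short window and say nothing of binding.

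The lists hold each peak's interval, summit, fold over background, -log10 p and -log10 q, all as the authors gave them. Peaks were ranked within a library by -log10 p, with rank 1 the strongest, and the 50000 top-ranked peaks of a library are called strong. The Day10 lists were 2.32 and 2.37 times as long as that of Day0 replicate 1, and the Day3 lists 1.08 times. A strong peak had a fold of at least 16.89 and 17.33 on Day0, 14.46 and 15.01 on Day3, and 17.75 and 17.66 on Day10. The highest fold in a list was 65.7 and 67.4 on Day10, against 95.0 to 97.3 in the other libraries. Read depth is not given in the lists. The narrowest peak was 68 and 72 bases wide on Day10, against 87 to 90 bases in the other libraries, and peak names contain the word lysis on Day3 only. Day and handling of the libraries therefore cannot be told apart.

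Listed peaks were densest around Prrx2 and sparsest around Twist1 on each day. The Twist1 window had 3.5 and 4.2 peaks per 100 kb on Day0, the same 3.5 and 4.2 on Day3, and 7.1 and 7.7 on Day10. The Prrx2 window had 29.5 and 28.0 on Day0, 34.5 and 35.0 on Day3, and 92.0 and 90.5 on Day10. Twist2, with 13.7 to 27.0 peaks per 100 kb, and Prrx1, with 16.6 to 29.7, lay between them. These densities depend on list length, and the whole Day10 lists were 2.32 and 2.37 times as long as that of Day0 replicate 1. Strong peaks followed another course. Summed over the 4 windows they numbered 60 and 59 on Day0, 61 and 58 on Day3, and 41 and 45 on Day10, so both Day10 libraries were below all 4 others. The number of strong peaks per library is fixed, so a count in the windows is relative to the rest of the list. Nor can fewer cells with an open element and a less open element in each cell be told apart in bulk libraries. The Twist1 window had 6 strong peaks in each Day0 library, 5 and 7 in the Day3 libraries, and 2 in each Day10 library. In the Twist2 window there were 15 and 12 on Day0, 16 and 13 on Day3, and 7 and 9 on Day10. Prrx1 had 14 and 16, then 12 and 11, then 9 and 11. Prrx2 differed little, with 25 in each Day0 library, 28 and 27 on Day3, and 23 in each Day10 library.

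**Figure D1:**
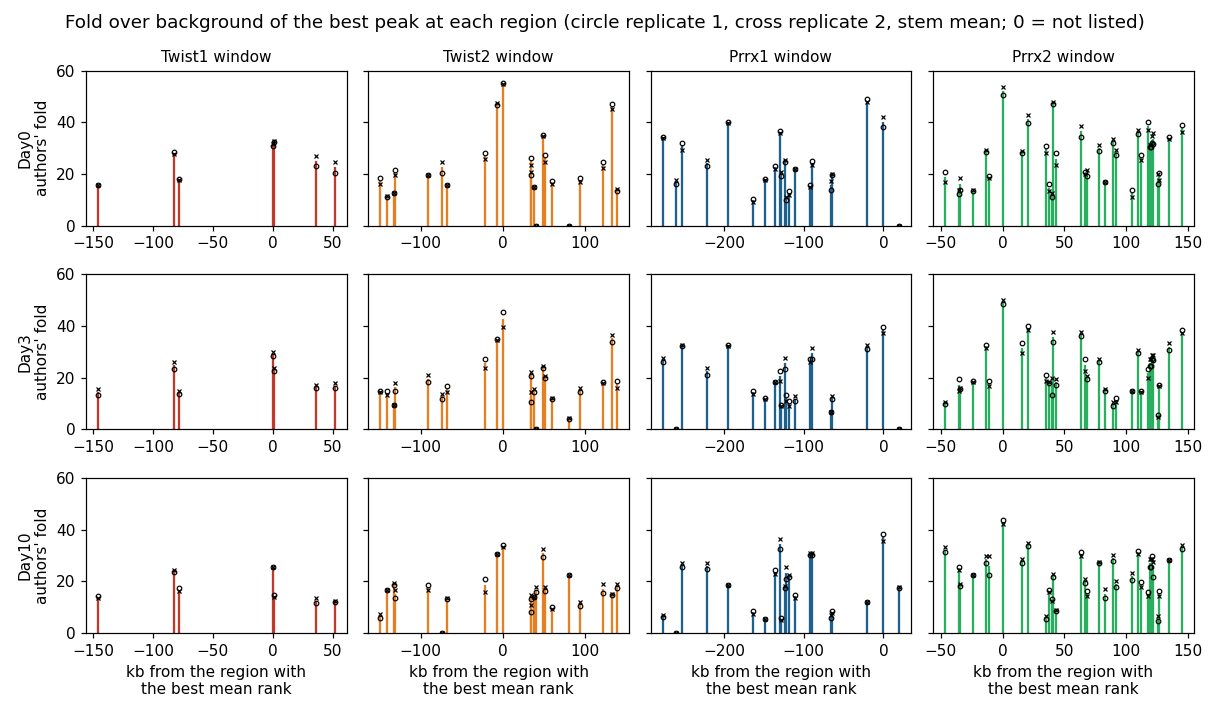
Authors' fold over background (vertical axis) of the best peak at each of the 83 member regions, by distance in kb from the window's region with the best mean rank; rows are Day0, Day3 and Day10, circles and crosses the 2 libraries, stems their mean, and 0 means not listed. The Twist1 window shows 7 stems on every day, while the tallest Twist2 stem averages libraries at 55.3 and 54.9 on Day0 and at 34.1 and 33.5 on Day10.

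To compare days, regions reaching 250 bases to either side of the summits of strong peaks were pooled over the libraries, which gave 78697 regions genome-wide and 83 in the windows (7 for Twist1, 22 for Twist2, 21 for Prrx1 and 33 for Prrx2). Each region took the rank of the best peak that overlapped it, and for these ranks lists were read to the length of the shortest, 164320. By the strict rule, a region was called gained when both later libraries had a strong summit in it and neither earlier library had a peak ranked 100000 or better over it, and lost in the mirrored case. Looser counts took all regions whose 2 ranks on a day lay entirely above or below the 2 of the other day. With 2 libraries against 2, no exact two-sided permutation test can go below p = 0.333, so no p-value is given and each count stands beside the same share over all regions.

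On Day3 versus Day0, 0 of the 83 regions were called gained and 0 lost, where 0.543% and 0.513% of all regions were. By non-overlapping ranks, 28 regions (33.7%) ranked better on Day3, against 42.0% of all regions, and 35 (42.2%) ranked worse, against 31.2%. Prrx2 had 15 regions better (45.5%) and 10 worse (30.3%), which is near the shares over all regions. The other windows had fewer regions better than worse. Their counts were 1 (14.3%) and 4 (57.1%) for Twist1, 5 (22.7%) and 10 (45.5%) for Twist2, and 7 (33.3%) and 11 (52.4%) for Prrx1. By the authors' fold, which is not scaled to equal list ranks, the genome-wide balance lay the other way, with 27.1% of all regions higher on Day3 and 47.6% lower. Of the 83 regions, 16 were higher and 52 lower by fold, and Prrx2 had 8 higher and 19 lower. By -log10 q, 16 of the 83 were higher, against 28.7% of all regions, and 49 were lower, against 45.1%. By rank and without Day0 replicate 1, the Twist2 counts were 9 better and 10 worse, against 47.3% and 35.9% of all regions. Without Day3 replicate 1 the Twist1 counts were 3 and 4. The counts over all 83 regions were then 36 and 36, against 47.4% and 36.1% of all regions.

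On Day10 versus Day0, 1 region was called gained (1.20%), against 10.7% of all regions, and 7 were called lost (8.43%), against 7.99%. The gained share was thus below the background and the lost share near it. Ranks were better on Day10 for 23 regions (27.7%), against 43.9% of all, and worse for 47 (56.6%), against 41.2%. The median log2 ratio of Day10 to Day0 rank, where a positive value means weaker on Day10, was 0.26 over the 83 regions and -0.06 over all regions. It was 0.35 in the Twist1 window, 0.69 for Twist2, 0.63 for Prrx1 and -0.02 for Prrx2. All 7 Twist1 regions ranked worse on Day10, as did 16 of 22 around Twist2, 11 of 21 around Prrx1 and 13 of 33 around Prrx2. Regions that ranked better numbered 0, 5, 9 and 9 in the same order of windows. By the authors' fold, 15 of the 83 regions were higher on Day10 than on Day0, against 36.4% of all regions, and 58 were lower, against 51.3%. By -log10 q, 22 were higher, against 43.2%, and 46 lower, against 42.4%. The Prrx2 counts for better and worse ranks were 14 and 14 without Day0 replicate 2, against 47.5% and 44.6% of all regions. Without Day10 replicate 1 they were 14 and 15, against 48.2% and 44.9%.

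On Day10 versus Day3, 1 region was called gained (1.20%), against 7.72% of all regions, and 3 were called lost (3.61%), against 3.16%. Ranks were better on Day10 for 19 regions (22.9%), against 36.1% of all, and worse for 50 (60.2%), against 48.3%. By -log10 q, 29 of the 83 regions were higher on Day10 than on Day3, against 44.7% of all regions, and 30 were lower, against 36.3%. By fold, 25 were higher, against 37.6%, and 41 lower, against 46.5%. Over the full course, 23 regions (27.7%) ranked worse on each later day than on the one before, against 19.2% of all regions. They comprised 3 Twist1, 8 Twist2, 7 Prrx1 and 5 Prrx2 regions. The 5 regions (6.02%) that ranked better at each step, against 14.7% of all, were 2 around Prrx1 and 3 around Prrx2. A total of 28 regions (33.7%) were overlapped by a strong peak in every library, against 39.7% of all, and 16 of these lay in the Prrx2 window. Neighbouring regions could share a peak in this count, as chr2:30817044-30817544 and chr2:30818141-30818641 did in every library.

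**Figure D2:**
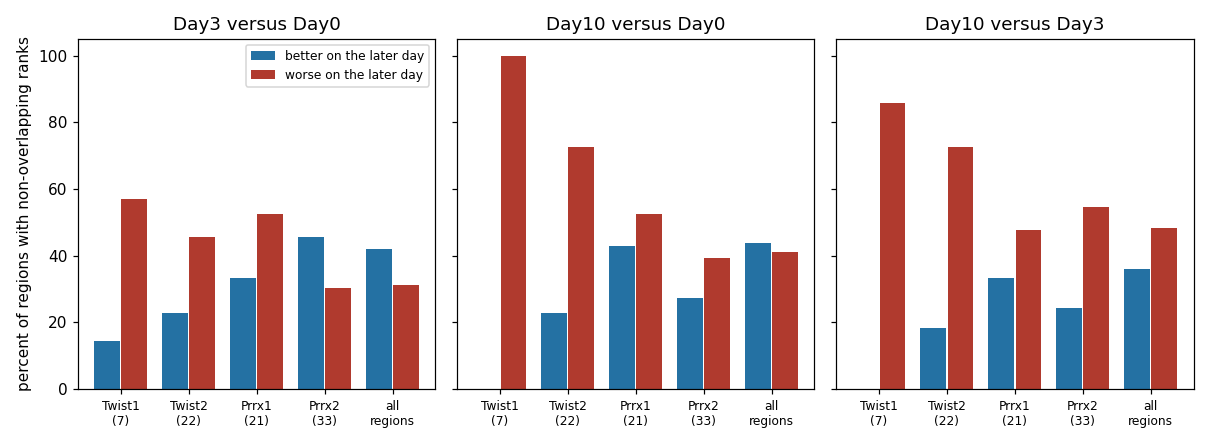
Percent of regions (vertical axis) whose ranks on the later day lay entirely better or worse than on the earlier day, for the 4 windows (number of regions in brackets) and for all 78697 regions. In the Day10 versus Day0 panel the bar for worse ranks is taller than that for better ranks in all 4 windows, and stands at 100% for the 7 Twist1 regions. The Prrx2 bar for worse ranks, at 39.4%, is below that of all regions, at 41.2%.

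The Twist1 window held few elements, among them a wide one whose rank moved little between days. The region chr12:34007410-34007910 had Day0 ranks of 25299 and 27063, Day3 ranks of 27735 and 23204, and Day10 ranks of 30262 and 28192. Its fold was 28.5 and 27.7 on Day0, 23.4 and 26.1 on Day3, and 23.5 and 24.6 on Day10. The peak over it spanned 2079 and 1903 bases on Day0, 2515 and 1475 on Day3, and 2194 and 2005 on Day10, and at most 7.12% of the strong peaks of its library were as wide. A pair of neighbouring regions differed from each other. At chr12:34090036-34090536 the ranks were 21871 and 21159 on Day0, 19371 and 17375 on Day3, and 25494 and 26008 on Day10, strong throughout. Next to it, chr12:34090891-34091391 had the best Day0 ranks of the window, 19530 and 19672, with 28814 and 27155 on Day3 and 64109 and 69922 on Day10. Its fold was 32.6 and 32.9 on Day0, 22.8 and 23.9 on Day3, and 14.9 and 13.9 on Day10, with no overlap between any 2 days, and its log2 ratio of Day10 to Day0 rank was 1.77. A further 2 regions, chosen after their values were seen, lay at chr12:34125734-34126234 and chr12:34141737-34142237 and had ratios of 1.37 and 1.17, and the remaining 4 had ratios of 0.16 to 0.35. No Twist1 region met the strict rule in any comparison, and 2 of 7 were strong in all libraries.

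The Twist2 window held an element near the top of the Day0 lists, and its rank was worse on each later day. The region chr1:91751084-91751584 ranked 1002 and 1294 on Day0, 2727 and 6920 on Day3, and 9255 and 11169 on Day10. Its fold was 55.3 and 54.9 on Day0, 45.6 and 39.5 on Day3, and 34.1 and 33.5 on Day10. It was strong in every library. The next best region, chr1:91744354-91744854, showed the same order, with Day0 ranks of 4931 and 4915, Day3 ranks of 10610 and 11679, and Day10 ranks of 14422 and 15466. The third of the best-ranked regions, chr1:91883916-91884416, ranked 4576 and 6579 on Day0 and 11801 and 9382 on Day3, but 62335 and 60162 on Day10, and its fold was 47.2 and 45.1, then 33.9 and 36.7, then 14.9 and 15.3. This is a log2 rank ratio of 3.48 between Day10 and Day0, but its Day10 peaks ranked better than 100000, so the strict rule did not call it.

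Strict calls around Twist2 were 1 in each direction. The gained region, chr1:91831671-91832171, was not listed on Day0, had weak Day3 peaks at ranks 167555 and 150736 with a fold of 3.9 and 4.4, and reached Day10 ranks of 31930 and 33489 with a fold of 22.5 and 22.3. It was the only region of the 83 called gained, and was so against Day3 as well. A further region, chosen after its values were seen, stood just short of the rule: chr1:91791348-91791848 was not listed on Day0 or Day3 and ranked 57214 and 49424 on Day10. The lost region, chr1:91677667-91678167, had a fold of 20.4 and 24.8 on Day0 and 11.7 and 13.9 on Day3, and was not listed on Day10. A wide region, also picked after its values were seen, had a narrower peak on Day10: that over chr1:91728936-91729436 spanned 1549 and 1559 bases on Day0, 1712 and 1542 on Day3, and 697 and 1010 on Day10. Its ranks were 25578 and 29357, then 20496 and 26451, then 36166 and 57884, so the Day10 libraries differed from each other by more than those of the other days.

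**Figure D3:**
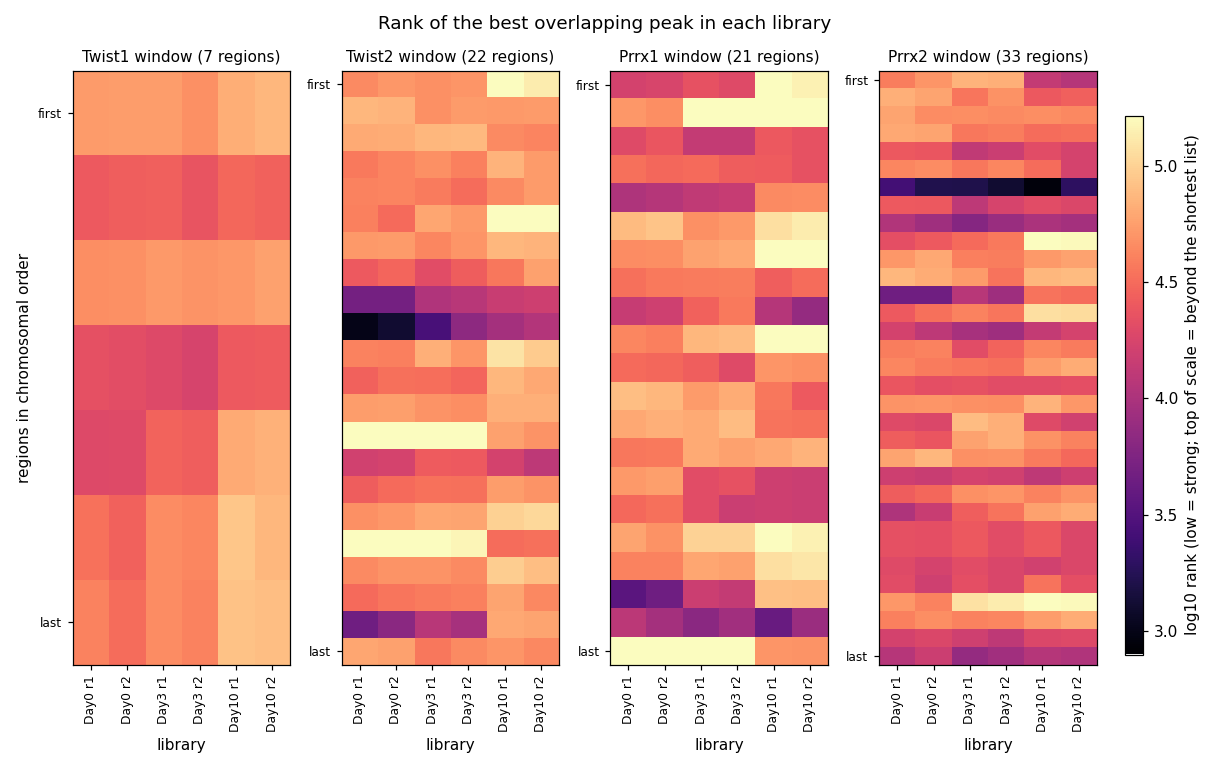
log10 of the rank of the best overlapping peak (colour, dark is strong) for each region (rows, in chromosomal order) and library (columns, Day0, Day3 and Day10). The darkest Twist2 row has ranks of 1002 and 1294 on Day0 and lighter shades on each later day, while the darkest Prrx2 row keeps ranks of 896 to 2588 in all 6 libraries.

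Prrx1 had strict losses and also regions that ranked better on later days. The share ranked better on Day10 than on Day0, 42.9%, was near the 43.9% of all regions. Of its 21 regions, 4 were lost on Day10 versus Day0, where 7.99% of all regions were, and 1 was lost on Day10 versus Day3. At chr1:162953751-162954251 the ranks were 16803 and 17786 on Day0 and 22253 and 20033 on Day3, but 162971 and 143414 on Day10, with a fold of 34.4 and 34.1, then 26.1 and 27.8, then 6.2 and 7.0. It was the region also lost on Day10 versus Day3. The 3 others, chr1:163081976-163082476, chr1:163102450-163102950 and chr1:163165984-163166484, had folds of 17.9 to 20.8 on Day0, 8.9 to 12.8 on Day3 and 5.1 to 8.6 on Day10. Like the first, they already had a worse rank and a lower fold on Day3 than on Day0 in both libraries. All 4 lost regions were still listed in both Day10 libraries, at a -log10 q of 5.6 to 13.6. The calls thus rest on rank and not on absence from the lists. The region whose rank differed most between Day10 and Day0 was not a strict call: chr1:163209974-163210474 ranked 3480 and 4563 on Day0, 15045 and 13512 on Day3, and 81177 and 80669 on Day10. Its fold was 48.9 and 48.0, then 31.1 and 32.8, then 12.0 and 12.1, and its log2 rank ratio of 4.34 between Day10 and Day0 was the highest of the 83 regions.

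Other Prrx1 elements kept their rank or ranked better. The region with the best mean rank, chr1:163231000-163231500, ranked 12183 and 9086 on Day0, 6577 and 8865 on Day3, and 4187 and 8019 on Day10, and its fold stayed between 35.8 and 42.2. At chr1:163100686-163101186 the Day3 libraries were the low ones. It had a fold of 36.7 and 35.8 on Day0, 22.8 and 18.9 on Day3, and 32.6 and 36.3 on Day10. A neighbouring pair of peaks, chosen after its values were seen, was listed as 1 peak on Day10. On Day0 and Day3 separate peaks lay over chr1:163139394-163139894 and chr1:163140894-163141394, and the first had ranks of 53091 and 55832 on Day0 and 20510 and 22603 on Day3. In the Day10 libraries a single peak of 2118 and 2926 bases covered both at ranks 15326 and 14697, with its summit in the first region. Fold over the first region was 15.7 and 15.0 on Day0, 27.2 and 26.1 on Day3, and 30.2 and 31.1 on Day10. Also named after the fact, chr1:163250978-163251478 was listed on Day10 alone, at ranks 50491 and 49488, which is 1 library short of the strict rule.

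By the authors' fold, 5 of the 33 Prrx2 regions were higher on Day10 than on Day0 and 21 lower, where 36.4% and 51.3% of all regions were. By -log10 q, 10 were higher and 15 lower, where 43.2% and 42.4% of all regions were. By rank, the Prrx2 window had the median Day10 to Day0 ratio closest to 0 of the 4 windows. Its strongest region, chr2:30697539-30698039, ranked 2588 and 1667 on Day0, 1619 and 1290 on Day3, and 896 and 1961 on Day10, and the days overlapped between Day3 and Day10 and between Day0 and Day10. The next 2 by mean rank, chr2:30718118-30718618 and chr2:30842712-30843212, kept ranks between 6188 and 15064 in all 6 libraries. Both lost regions lay near each other in the middle of the window. Of these, chr2:30732583-30733083 had a fold of 30.9 and 28.3 on Day0, 21.1 and 18.9 on Day3, and 5.3 and 6.5 on Day10, and chr2:30740572-30741072 had 28.0 and 23.7, then 17.2 and 19.5, then 8.6 and 8.8. Both were called lost on Day10 versus Day0 and versus Day3, but were still listed on Day10, at a -log10 q of 5.9 to 14.4. Between them lay chr2:30738238-30738738, named after its values were seen. Its fold was 47.2 and 48.0 on Day0, 33.9 and 37.8 on Day3, and 21.6 and 22.8 on Day10. Its ranks were worse at each step, with 4598 and 4573, then 11837 and 8369, then 34775 and 32232. The log2 ratio of Day10 to Day0 rank was 2.87, though its peak was still among the strong ones in every library.

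Some Prrx2 regions were low on Day3 and high on both other days, and these too were picked after their values were seen. At chr2:30787026-30787526 the ranks were 19825 and 18514 on Day0, 78093 and 68002 on Day3, and 19669 and 16253 on Day10, with a fold of 32.0 and 33.5, then 8.9 and 10.6, then 27.8 and 30.2. The Day3 values lay apart from both other days. By rank Day0 and Day10 overlapped, while by fold both Day10 libraries were below both Day0 libraries. At chr2:30650777-30651277 the Day10 libraries were highest, with a fold of 21.0 and 16.8 on Day0, 10.0 and 10.6 on Day3, and 31.2 and 33.5 on Day10. Which gene these elements act on was not tested.

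**Figure D4:**
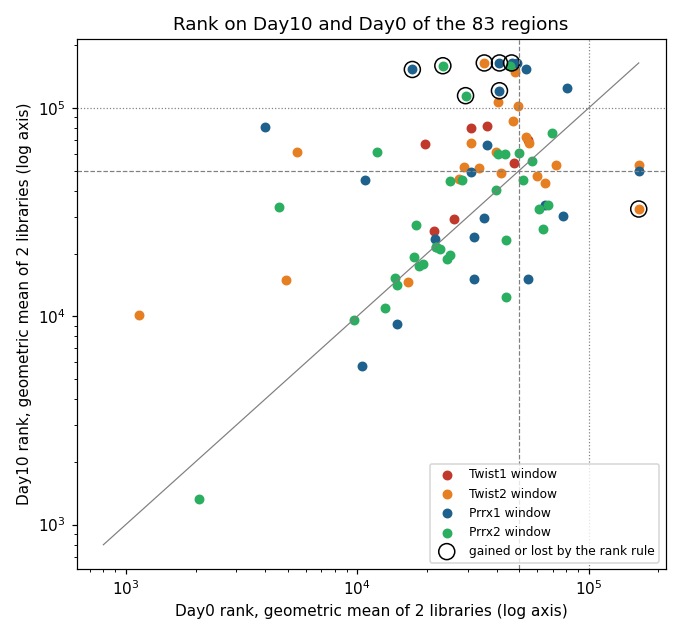
Geometric mean rank of each of the 83 regions on Day10 (vertical, log axis) and Day0 (horizontal, log axis); colours are the 4 windows, the diagonal marks equal ranks, dashed and dotted lines mark ranks 50000 and 100000, and open circles mark the 8 strict calls. Points above the diagonal ranked worse on Day10, as all 7 Twist1 points did, and the circled point below the diagonal is the gained Twist2 region.

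Large differences between Day10 and Day0 were also counted. Log2 rank ratios above 1, with ranks worse on Day10, were seen in 3 of 7 Twist1, 8 of 22 Twist2, 8 of 21 Prrx1 and 5 of 33 Prrx2 regions, together 28.9% of the 83 regions, against 24.6% of all regions. Ratios below -1 were seen in 0, 2, 4 and 2 regions, together 9.64%, against 27.1%. The bases covered by strong peaks were 4801 and 4342 in the Twist1 window on Day0, 4752 and 4572 on Day3, and 2535 and 2388 on Day10. For Prrx2 they were 17065 and 17439, then 20069 and 19087, then 21348 and 22668. No genome-wide coverage is given beside these. Genome-wide, 13.0% of the strong peaks of Day0 replicate 1 were at least 1066 bases wide, and 22.1% of those of Day10 replicate 1. The lower Day10 coverage at Twist1, Twist2 and Prrx1 turned into a higher one when the strong class was set by a -log10 q cutoff of 10 and not by equal numbers of peaks.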

How the data were processed

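ATAC-seq was analysed in 6 ATDC5 libraries, 2 per day, grouped by the sample titles. The authors deposited 1 narrowPeak list per library. The submitters' processing notes name Trim Galore and mm10. Reads were single-end, per the labels' protocols. No source used here gives the aligner, the peak caller or any shift for the Tn5 cut. Scaffold names in the lists belong to GRCm39, so positions are read as GRCm39, counted from 1. The deposited values are an integer score, a fold ratio, a -log10 p and a -log10 q per peak, used to rank and describe peaks within a list. Summit positions are the authors' own.

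With Python 3.11.15, numpy 2.4.6 and pandas 2.3.3, peaks on chromosomes 1 to 19, X and Y were ranked by -log10 p, then fold, then position. Between 1666 and 2061 peaks per library have the same fold as the peak at rank 50000. Strong summits of all libraries were widened by 250 bases each way, overlaps going to the better rank. Overlap means 1 base or more. The members, regions and rules were chosen with earlier results of these data known. The calling rule was run on simulated lists, which were noisy copies of the Day0 replicate 1 list with isolated strong peaks removed. Those lists were of equal length and held whole removals only. They therefore cannot show how the rule behaves with partial shifts or with the longer Day10 lists. Named regions are the 3 best by mean log10 summit rank per window and every strict call; others are marked. Planned marker genes, other pathway genes and motifs in peaks need a GRCm39 annotation or genome and were not analysed here.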

Additional observations from a re-analysis of the deposited data

How the results depend on the processing

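Counts of strict calls in the 4 windows are small and moved with the cutoffs. With no gap between ranks (50000 in and out) there were 7 gained and 8 lost on Day3 versus Day0 (7.99% and 7.65% of all regions), 8 and 20 on Day10 versus Day0 (18.1% and 17.5%), and 7 and 17 on Day10 versus Day3 (15.0% and 14.1%). With 30000 in and 60000 out, 1 was lost on Day3 versus Day0 (0.33%) and 2 were gained on Day10 versus Day3 (4.48%). By -log10 q (10 in, 5 out), 1 was lost on Day3 (0.443% of all regions), 3 were gained and 2 lost on Day10 versus Day0 (10.5% and 3.41%), and 3 gained and 1 lost on Day10 versus Day3 (7.67% and 2.4%). By summits alone, 1 was lost on Day3 (1.72%), 2 were gained on Day10 versus Day0 (12.0%), and 3 gained and 7 lost on Day10 versus Day3 (9.08% and 4.59%). Requiring a longer overlap (0.5 of the region) gave 2 gained on Day3 (4.44%) and 3 gained and 5 lost on Day10 versus Day3 (10.6% and 7.1%). Leaving out each library gave 0 to 2 lost on Day3 versus Day0 (2 without Day0 replicate 1, against 0.742% of all regions). On Day10 versus Day0 it gave 1 to 3 gained (11.2% to 12.5% of all regions). On Day10 versus Day3 it gave 1 to 3 gained (8.2% to 9.13%) and 3 to 5 lost (3.7% to 3.99%). Gains of 3 came without Day10 replicate 1, and 5 losses without Day3 replicate 2. The cause was not tested. Alternatives for the counts by non-overlapping ranks were chosen after seeing the data. Summed over the 4 windows, these counts stayed within 1.5 times under other widths, ties, list lengths, summits alone and with each library left out. By the authors' fold, 16 regions were higher on Day3 versus Day0 (27.1% of all regions) and 15 on Day10 versus Day0 (36.4%). By -log10 q, 16 were higher on Day3 versus Day0 (28.7%), and 29 higher and 30 lower on Day10 versus Day3 (44.7% and 36.3%). Covered bases, later day minus Day0, changed sign in 6 settings where the libraries of both days did not overlap. Where they overlapped, on Day3 around Twist1, Twist2 and Prrx1, the sign also turned in some settings and was not read. Day10 minus Day0 was 171.5 for Twist1, 3450.5 for Twist2 and 1840.5 for Prrx1 at a -log10 q of 10, 283.0 for Twist2 in the 100000 strongest peaks and 1037.5 for Prrx1 in the 30000 strongest. Day3 minus Day0 was -968.5 for Prrx2 in the 30000 strongest. No paired analysis was possible because the labels tie no replicate number across days and the results come from no test. Depth is unknown, and the 2 libraries of a day may differ by technical spread alone.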

Other observations

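Weaker elements were counted by merging all listed peaks of the 6 libraries that overlap. The 4 windows held 421 such sites, of which 26.1% were listed in every library, against 22.1% of the 439652 sites genome-wide. The share was 41.7% of 24 sites for Twist1, 31.9% of 91 for Twist2, 24.6% of 118 for Prrx1 and 22.3% of 188 for Prrx2. Sites listed in both Day10 libraries and in no other made up 31.6% of the 421, against 35.0% genome-wide, and were most frequent around Prrx2 with 39.9%. Sites listed in both Day0 libraries alone made up 0.0% of the Twist1 sites, 3.3% for Twist2, 8.47% for Prrx1 and 1.06% for Prrx2, together 3.56%, against 2.73% genome-wide. All of these shares depend on the length of the lists, which is greatest on Day10.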
